A study of Mus musculus with 32 samples.

Results

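The knockout effect of COX10 was compared between skeletal muscle, where the gene is deleted, and liver, where it is not targeted. The comparison took in every gene expressed in both tissues, which were 8136 of the 55401 genes counted, out of 10950 that passed the expression filter in muscle and 9072 that passed it in liver. A level reached in 1 genotype was enough to pass, so a gene near 0 in CTL muscle, such as Acox2, could enter through its COX10 KO level. A gene was asked 3 questions in a joint fit of 24 libraries: whether COX10 KO differed from CTL in muscle, whether it did in liver, and whether the muscle change differed from the liver change. Genes of the mitochondrial integrated stress response (ISRmt), 19 on the list and 14 among those fitted, stayed in the fit and in its totals but are not described.

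COX10 makes the heme precursor that cytochrome c oxidase, complex IV of the respiratory chain, needs for its assembly. Muscle fibres without it cannot respire normally, and a stress response built on the transcription factor ATF4 is known to follow respiratory chain defects in muscle. Liver exchanges fuels and hormones with muscle through the blood: in fasting it turns to fatty acid oxidation under the nuclear receptor PPAR alpha and shuts down lipid synthesis under SREBP. Liver also houses many resident macrophages (Kupffer cells), while resting muscle holds few.

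All 4 groups were C57BL/6 mice of 200 days with 6 libraries each, 3 from females and 3 from males by label. These labels differ from the methods of the study, which state that males alone were used unless indicated otherwise. COX10 KO mice were homozygous for a floxed Cox10 allele and carried Cre recombinase in the Myl1 locus, which is active in skeletal muscle fibres, so that the other cells of muscle and the liver are not targeted. The CTL mice are labelled as controls without further detail of their alleles. Tissue was calf muscle (gastrocnemius and soleus) or liver, and 3′ tag libraries count reads near transcript ends. Because these are bulk tissues, fewer cells of a type and less RNA per cell cannot be told apart.

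The deposited totals ran from 434494 counts (CTL muscle 2) to 16044634 counts (CTL liver 1). Defining markers matched the tissue labels, with 86910 to 296781 CPM (counts scaled to a common library size) of muscle fibre transcripts in muscle and 116892 to 239826 CPM of hepatocyte transcripts in liver. By genotype, fibre transcripts were 98622 to 296781 CPM in CTL muscle and 86910 to 164348 CPM in COX10 KO muscle. Only CTL muscle 2 lay within the COX10 KO range. The part of this lower share in the other muscle values was not tested. A few libraries stood apart. CTL muscle 2, the shallowest, held 3233 CPM of hepatocyte transcripts against 37.0 to 468 CPM in the other muscle libraries. COX10 KO liver 6 and COX10 KO liver 4 held 979 and 233 CPM of muscle fibre transcripts against 15.3 to 155 CPM in the other livers, COX10 KO liver 3 (674311 counts) lay farthest from the rest on the first principal component, and 2 CTL liver libraries carried sex-linked transcripts that went against their label. Whether the 3′ tags of Cox10 cover the deleted part was not tested, so Cox10 was not used as a check of the labels. Its CPM was 48.4 to 146 (median 123) in CTL muscle and 92.2 to 138 (median 108) in COX10 KO muscle, with overlapping groups and a log2 change of 0.05 (SE 0.31).

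COX10 KO muscle differed from CTL muscle in 723 genes at an adjusted p under 0.05 (edgeR quasi-likelihood test, Benjamini-Hochberg over the 8136 genes), 378 higher (4.65% of the genes fitted) and 345 lower (4.24%). In liver the same test passed for 1 gene, which was higher (0.0123%), and for none that was lower (0%). At an unadjusted p under 0.05 the liver gave 209 higher genes (2.57%) and 284 lower genes (3.49%), against 2000 genes in muscle. DESeq2 called 24 genes in liver. The difference between the tissues passed in 240 genes, 148 with the higher change in muscle (1.82%) and 92 with the lower (1.13%). With DESeq2 size factors in the same test these were 112 and 110, and the muscle calls 324 higher and 389 lower.

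From these tests 207 genes changed in muscle only, meaning that both the muscle change and the difference passed and the liver change did not. They were 124 that rose and 83 that fell in muscle. For 121 of them (75 rising, 46 falling) the 95% interval of the liver log2 change lay within -1 to 1, so a liver change of that size or more was outside it. These intervals use the spread of the joint fit, which both tissues share. No gene passed in both tissues, either in the same or in opposite directions, and 1 gene changed in liver only. Another 516 genes changed in muscle with no call for the difference, and in 32 the difference passed while neither tissue did.

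The signs of the changes were compared next. Of the 723 genes called in muscle, 449 had the opposite sign in liver, or 62.1%, against 55.1% of the other 7413 genes. That share was 48.9% without CTL liver 1, and 55% or more without any other single library. Over all 8136 genes the muscle and liver log2 changes had a Pearson correlation of -0.135 and a Spearman correlation of -0.154, which describes these 24 libraries only, since genes are not independent. Typical sizes also differed: the median absolute log2 change was 0.35 in muscle and 0.21 in liver. Median standard errors were 0.29 and 0.30, but the joint fit shares its estimate of spread between the tissues. Their nearness is therefore partly built in and does not compare the precision of the tissues. With each tissue fitted alone, 305 liver genes had an unadjusted p under 0.05, against 493 in the joint fit. That fit called 1190 genes in muscle and 0 in liver. Separate groups were also more frequent in muscle. All 6 COX10 KO values lay above all 6 CTL values for 358 genes in muscle (4.4%) and 12 in liver (0.147%). They lay below them for 167 in muscle (2.05%) and 13 in liver (0.16%). Groups were separate in both tissues for 2 genes of the 8136, Adgrl1 and Ghr, both described further on. At the shares above, a few such genes would be found even if the tissues were unrelated, so their number is not a result.

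**Figure D1:**
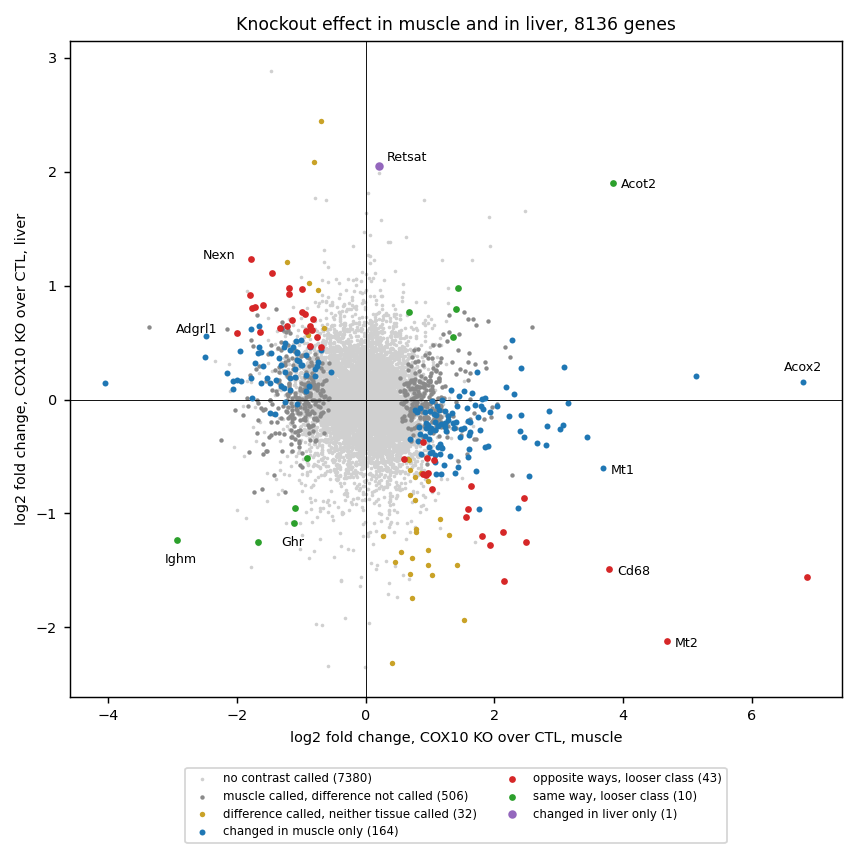
Log2 fold change of COX10 KO over CTL in muscle (x axis) against liver (y axis), 1 point for each of the 8136 genes, coloured by which of the 3 tests passed. Of the 207 genes changed in muscle only, 121 have a liver interval within -1 to 1, and Retsat stands alone as the gene called in liver.

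The calls depended on particular libraries. Leaving out CTL muscle 6 left 123 genes with a difference and 297 genes called in muscle, the lowest of the 24 counts with 1 library left out, while leaving out CTL liver 4 gave 359 differences and leaving out COX10 KO liver 3 gave 976 muscle calls. Without the 2 shallowest libraries the counts were 423 and 1009, without COX10 KO liver 4 and 6 they were 369 and 810, and without the 2 CTL livers that went against their labelled sex they were 206 and 962. Every one of the 240 genes kept its sign in all of these.

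Genes named as changed in muscle only were chosen for a muscle call, separate muscle groups and the largest differences. Their lack of overlap in muscle is therefore part of the choice. The metallothionein gene Mt2 had the largest difference among the named genes that rose in muscle only, and Mt1 rose with it. These small proteins bind zinc and copper and are induced by metals, glucocorticoids and oxidative stress. Mt2 (chr8:94172664-94173568, plus strand, GRCm38) was at 14.1 to 91.2 CPM (median 47.6) in CTL muscle and 519 to 2163 CPM (median 1166) in COX10 KO muscle. In liver it ran from 6.53 to 2271 CPM (median 442) in CTL and from 56.9 to 233 CPM (median 131) in COX10 KO. The muscle groups were separate by a wide gap, while the liver groups overlapped and the CTL livers were widely spread.

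The Mt2 log2 change was 4.68 in muscle (SE 0.84, adjusted p = 0.00114) and -2.12 in liver (SE 0.75, adjusted p = 0.647), and the difference between them was 6.81 (SE 1.12, adjusted p = 0.00118). Its neighbour Mt1 (chr8:94179082-94180327, plus strand) went from a median of 95.6 CPM (33.1 to 141) in CTL muscle to 1105 CPM (617 to 2230) in COX10 KO muscle, again without overlap. Mt1 in liver was 17.6 to 3589 CPM (median 766) in CTL and 234 to 1294 CPM (median 488) in COX10 KO. Its log2 change was 3.70 in muscle (adjusted p = 0.00251) and -0.60 in liver with an interval of -1.97 to 0.76, and the difference was 4.30 (adjusted p = 0.0142). Mt1 and Mt2 are close paralogs, so reads may be split between them by the counting.

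Acox2, a peroxisomal oxidase that shortens bile acid intermediates and branched fatty acids, is a gene of liver that was nearly silent in CTL muscle. Its locus is chr14:8225511-8259353 on the minus strand. Each CTL muscle library held 0, 1 or 2 counts of it, with 3.72 CPM in CTL muscle 2 and a median of 0.114 CPM, against 20.8 to 46.9 CPM (median 31.5) in COX10 KO muscle. The muscle groups did not overlap. Liver levels were 69.4 to 205 CPM (median 150) in CTL and 110 to 237 CPM (median 143) in COX10 KO, which overlapped. The muscle log2 change of 6.81 (SE 0.55, adjusted p = 2.21e-08) rests on few CTL counts and so depends on the prior count of the fit, and the liver change was 0.15 with an interval of -0.49 to 0.80. The difference was 6.65 (adjusted p = 1.15e-06), and 7.31 without the 2 shallowest libraries.

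Other genes that rose in muscle only included some that act in cell death, the cytoskeleton or lipid synthesis. Bid, which carries death signals to mitochondria, rose from a median of 1.08 CPM (0 to 3.72) to 12.2 CPM (9.8 to 15.7), a log2 change of 3.45 against -0.33 in liver (difference 3.78, adjusted p = 0.000527). Tubb6, a beta-tubulin, rose from 30.7 CPM (9.77 to 72.9) to 241 CPM (187 to 459), a log2 change of 3.02 against -0.26 in liver (difference 3.28, adjusted p = 0.00452). Neither gene overlapped between muscle groups, and both overlapped in liver. Spg21, the protein maspardin, rose from 16.8 CPM (8.14 to 48.4) to 134 CPM (99.2 to 164), with 2.81 in muscle, -0.40 in liver and a difference of 3.21 (adjusted p = 0.000712). Mid1ip1, which activates acetyl-CoA carboxylase, rose from 29.1 CPM (8.88 to 43.6) to 134 CPM (95.8 to 215), with 2.38 in muscle, -0.96 in liver and a difference of 3.33 (adjusted p = 0.00992). Both were without overlap in muscle and overlapped in liver.

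Of the 10 genes named that fell in muscle only, 4 encode parts of adrenergic and cyclic AMP signalling, a grouping made after the values were seen. Adcy9, an adenylyl cyclase that makes cyclic AMP, went from a median of 22.1 CPM (6.38 to 52.1) to 4.42 CPM (1.89 to 5.25) in muscle and was at 22 CPM (7.49 to 31.5) and 24.9 CPM (9.58 to 58.3) in CTL and COX10 KO liver. Adra1a, the alpha-1A adrenergic receptor, went from 6.10 CPM (3.88 to 13.0) to 1.46 CPM (0.954 to 3.13) in muscle and was at 7.4 and 10.9 CPM in the livers. COX10 KO muscle lay below every CTL muscle for both, and liver overlapped. Their log2 changes were -2.5 and -1.78 in muscle and 0.37 and 0.62 in liver, with differences of -2.87 (adjusted p = 0.0115) and -2.40 (adjusted p = 0.0134).

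Pde4a and Pde4d encode phosphodiesterases that break cyclic AMP down. Pde4d went from 575 CPM (289 to 1272) to 142 CPM (106 to 231) in muscle, without overlap, and was at 80.9 CPM (23.1 to 123) and 91.1 CPM (39.5 to 146) in CTL and COX10 KO liver. Its log2 change was -2.07 in muscle and 0.16 in liver. Pde4a went from 50 CPM (24.2 to 92.3) to 15.9 CPM (4.22 to 22.3) in muscle, also without overlap, with -1.95 in muscle and 0.43 in liver. Their differences of -2.23 (adjusted p = 0.0399) and -2.38 (adjusted p = 0.0494) were near the threshold: leaving out 1 library took Pde4d past it in 16 of 24 fits, up to 0.0827 without CTL muscle 6, and Pde4a in 20, up to 0.106 without COX10 KO liver 5.

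Structural and regulatory genes made up the other falls in muscle. Sorbs2, an adaptor of the Z-disc, fell from 96.5 CPM (44.7 to 117) to 20.7 CPM (12.7 to 25.9), a log2 change of -2.16 against 0.23 in liver (difference -2.39, adjusted p = 0.00178). Tshz1, a zinc finger transcription factor, fell from 25.4 CPM (11.8 to 47.8) to 8.34 CPM (7.15 to 11.1), with -1.64 in muscle, 0.59 in liver and a difference of -2.23 (adjusted p = 0.00176). Pdzrn3, a ubiquitin ligase of the neuromuscular junction, fell from 245 CPM (175 to 330) to 102 CPM (78.6 to 150) in muscle and was at 25.6 CPM (9.43 to 44.4) in CTL liver and 54.7 CPM (37.9 to 77.3) in COX10 KO liver. Muscle groups were separate for all of these, and 5 of the 6 COX10 KO livers lay above every CTL liver for Pdzrn3. Its log2 change was -1.18 in muscle and 0.98 in liver (unadjusted p = 0.00181, adjusted p = 0.377), a difference of -2.16 (adjusted p = 0.00248).

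The large ribosomal RNA of mitochondria, mt-Rnr2, was the only transcript of mitochondrial DNA with a difference between tissues, among the 8 fitted of 15 listed. It went from 4213 CPM (1675 to 10148) to 679 CPM (463 to 1488) in muscle, with no overlap, and was at 2070 CPM (1494 to 4829) and 3816 CPM (1240 to 7850) in CTL and COX10 KO liver, which overlapped. Its log2 change was -2.48 in muscle (adjusted p = 0.00239) and 0.56 in liver, and the difference was -3.03 (adjusted p = 0.0122). Of 8 mitochondrial transcripts fitted, 3 fell in muscle and none was called in liver. Among them was mt-Nd2, a subunit of complex I, at 23913 CPM (16205 to 50794) and 8553 CPM (6895 to 9461) in CTL and COX10 KO muscle, with a log2 change of -1.69 in muscle (adjusted p = 0.00673), an interval of -0.76 to 0.75 in liver, and -1.68 for the difference, which did not pass (adjusted p = 0.0772).

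**Figure D2:**
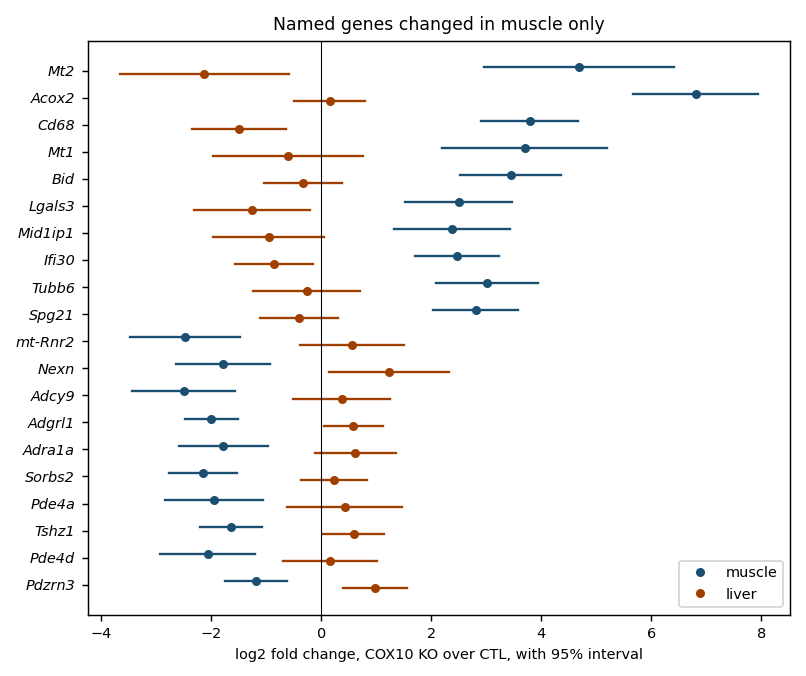
Log2 fold change of COX10 KO over CTL (x axis) with its 95% interval in muscle (blue) and liver (brown) for the 20 named genes changed in muscle only. All 20 muscle intervals exclude 0, which follows from choosing muscle calls with separate muscle groups. The liver intervals of Mt2, Cd68, Lgals3, Ifi30, Nexn, Adgrl1, Tshz1 and Pdzrn3 lie on the other side of 0. Choosing the largest differences favours such genes.

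Opposite changes in the tissues were next taken at a looser level, with an unadjusted p under 0.05 in liver. This class held 43 genes, 20 higher and 23 lower in muscle, of the 53 muscle calls with such a liver p. Of all 8136 genes, 493 had such a p (2.57% higher and 3.49% lower). The 53 of 723 muscle calls are thus near the share of all genes. The class also required a called difference, which all 43 muscle calls of opposite sign at that liver p had. Since none of the 43 passed the adjusted test in liver, their liver values are given as measured and not as changes. Leaving out 1 library moved the class between 27 and 66 genes. Outside the ISRmt list, the 10 largest differences were those of Mt2 (above), Cd68, Mpeg1, Lgals3, Ifi30, Sh3bp2, Ctss, Nexn, Lmo2 and Map2k6. Of these, Cd68, Mpeg1, Lgals3 and Ctss are on the macrophage list.

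Promoter sequences of the Cd68 and Ifi30 genes are shown because their windows hold matches to several of the motifs searched. Both genes rose in muscle and had a lower median in COX10 KO than in CTL liver, without a call in liver. They were taken from RefSeq (GRCm38.p6), a window around the transcript start, and capitals mark matches to 6 short motifs searched on both strands.
Cd68, chr11:69666121-69666420, minus strand: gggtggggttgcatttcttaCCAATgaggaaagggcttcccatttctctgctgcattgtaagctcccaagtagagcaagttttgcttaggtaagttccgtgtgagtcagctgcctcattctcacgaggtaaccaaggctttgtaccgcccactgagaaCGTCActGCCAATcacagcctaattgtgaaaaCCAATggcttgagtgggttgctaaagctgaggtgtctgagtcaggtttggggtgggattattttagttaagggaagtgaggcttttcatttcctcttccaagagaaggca
Ifi30, chr8:70766614-70766913, minus strand: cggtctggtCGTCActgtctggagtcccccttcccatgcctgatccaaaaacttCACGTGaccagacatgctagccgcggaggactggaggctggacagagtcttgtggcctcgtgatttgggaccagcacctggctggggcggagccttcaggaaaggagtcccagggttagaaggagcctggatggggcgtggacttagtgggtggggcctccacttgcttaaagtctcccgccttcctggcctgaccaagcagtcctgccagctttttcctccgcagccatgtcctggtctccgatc

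The motifs were the E-box CACGTG (found in 7.15% of 32851 promoters), the CAAT box CCAAT (37.4%), the CRE core TGACG (20.8%), the amino acid response element core TGATGNAA (3.97%), the NF-1 motif TTGGC (46.7%) and the glucocorticoid receptor motif AGAACA (19%). The Cd68 window held 3 CAAT boxes, 1 CRE core and 1 NF-1 motif, the last overlapping a CAAT box in the letters GCCAAT, and the Ifi30 window held 1 E-box and 1 CRE core. Of the 8 opposite-way genes with a sequence, 1 had an E-box, 3 a CAAT box, 2 a CRE core, 2 an NF-1 motif, 3 a glucocorticoid receptor motif and none the amino acid response core. Nexn and Lmo2 had no entry. A match describes letters in a window and is not evidence of binding.

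Cd68, the lysosomal membrane protein macrosialin of macrophages (chr11:69664213-69666153, minus strand), was at 1.37 to 5.97 CPM (median 4.06) in CTL muscle and 42.7 to 73.0 CPM (median 49.4) in COX10 KO muscle. In liver it was at 5.32 to 43.6 CPM (median 14.7) in CTL and 2.99 to 9.36 CPM (median 6.45) in COX10 KO. Muscle groups were far apart, and 3 of 6 COX10 KO livers lay below every CTL liver. The log2 change was 3.79 in muscle (SE 0.43, adjusted p = 5.53e-06) and -1.49 in liver (SE 0.42, unadjusted p = 0.00142, adjusted p = 0.376). The difference of 5.28 (SE 0.59, adjusted p = 9.94e-06) passed in all 36 alternative fits that included Cd68.

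Ifi30, a lysosomal thiol reductase that prepares antigens, was at 15.6 CPM (8.69 to 39.1) in CTL muscle and 82.2 CPM (66.5 to 165) in COX10 KO muscle, and at 67.8 CPM (43.2 to 89.7) and 32.7 CPM (13.2 to 64.8) in CTL and COX10 KO liver. Muscle did not overlap, and 4 COX10 KO livers lay below all CTL livers. Log2 changes were 2.46 in muscle, -0.86 in liver and 3.33 for the difference (adjusted p = 0.000546). Lgals3, the galectin of activated macrophages, was at 10.2 CPM (2.15 to 16.8) and 45.4 CPM (37.6 to 54.0) in CTL and COX10 KO muscle, and at 10.5 CPM (2.59 to 37.7) and 5.07 CPM (3.41 to 9.36) in the livers. It was separate in muscle and overlapped in liver, with 2.5, -1.25 and a difference of 3.75 (adjusted p = 0.00311).

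Mpeg1, a pore-forming protein of macrophages, and Ctss, a cathepsin of antigen-presenting cells, had overlapping muscle groups. Mpeg1 was at 1.83 CPM (0.444 to 13.0) in CTL muscle and 8.98 CPM (6.22 to 17.0) in COX10 KO muscle, where the highest CTL value was that of CTL muscle 2, and at 30.0 CPM (18.9 to 46.7) and 10 CPM (0 to 20.3) in the livers. Ctss was at 9.26 CPM (4.89 to 29.8) and 35.1 CPM (22.4 to 66.0) in muscle and at 46.4 CPM (26.1 to 120) and 25.3 CPM (3.29 to 40.0) in liver. Their differences were 3.75 (adjusted p = 0.00992) and 3.21 (adjusted p = 0.00422). The Mpeg1 muscle call was lost in 7 of 24 fits without 1 library, with an adjusted p of up to 0.0848 without CTL muscle 5, and the Ctss call in 1, without CTL muscle 6 (adjusted p = 0.0547).

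Sh3bp2, an adaptor of immune receptor signalling, was at 0.886 CPM (0 to 3.42) and 4.56 CPM (2.43 to 13.1) in CTL and COX10 KO muscle and at 17.8 CPM (6.16 to 19.6) and 4.91 CPM (1.64 to 15.0) in liver, overlapping in both tissues (difference 3.30, adjusted p = 0.0142). Its muscle call was lost in 4 of 24 fits without 1 library, with an adjusted p of up to 0.0841 without COX10 KO muscle 6. Lmo2, a transcriptional adaptor of blood and endothelial cells, rose in muscle from 10.1 CPM (2.71 to 20.5) to 35.1 CPM (26.6 to 55.3), without overlap, against 6.17 CPM (1.52 to 15.7) and 2.35 CPM (1.5 to 5.79) in liver (difference 3.01, adjusted p = 0.00485).

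Genes with lower values in muscle and higher ones in liver included parts of the contractile and signalling machinery. Nexn, the actin-binding protein nexilin of the Z-disc, was at 732 CPM (294 to 1819) in CTL muscle and 238 CPM (216 to 274) in COX10 KO muscle, without overlap. Its liver levels were low, at 2.68 CPM (0.576 to 6.16) and 5.99 CPM (0 to 13.3), and overlapped. Log2 changes were -1.78 in muscle, 1.23 in liver and -3.01 for the difference (adjusted p = 0.0134). Since Nexn is abundant in muscle and COX10 KO liver 4 and 6 held muscle fibre transcripts, the values without them are given: 0.83 in liver and -2.64 for the difference (adjusted p = 0.0475).

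Map2k6, a kinase that activates p38, was at 85.2 CPM (55.8 to 203) and 27.3 CPM (15.1 to 56.7) in CTL and COX10 KO muscle and at 10 CPM (5.08 to 22.2) and 18.9 CPM (6.47 to 33.9) in liver, overlapping in both tissues. Its difference was -2.71 (adjusted p = 0.0111), and -3.25 without COX10 KO liver 4 and 6. Adgrl1, the adhesion receptor latrophilin 1 (chr8:83900105-83941954, plus strand), was the only gene fitted with separate groups of opposite direction. It was at 31.8 CPM (20.9 to 43.6) and 8.23 CPM (6.14 to 10.4) in muscle and at 6.01 CPM (3.14 to 6.63) and 7.97 CPM (6.81 to 11.1) in liver. The log2 change was -1.99 in muscle (adjusted p = 7.9e-06) and 0.59 in liver (unadjusted p = 0.0336, adjusted p = 0.782), and the difference was -2.58 (adjusted p = 0.000184).

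**Figure D3:**
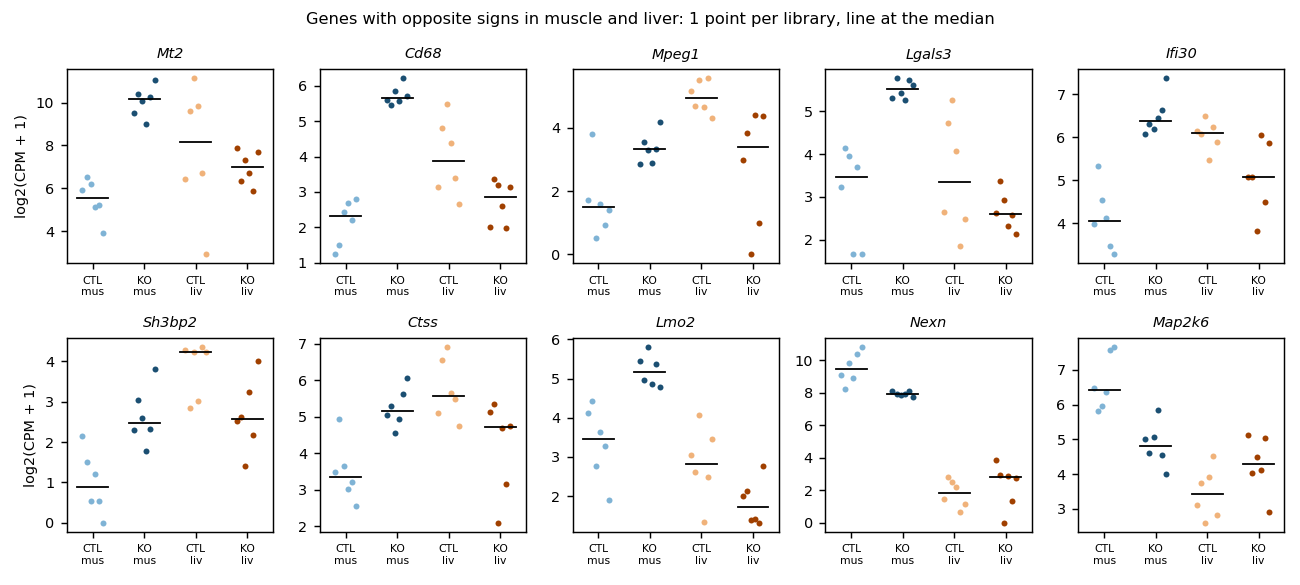
Level, log2(CPM + 1) on the y axis, of the 10 genes outside the ISRmt list with the largest differences in the looser class of opposite signs, 1 point per library and a bar at the median of each group of 6. Muscle groups are separate for Mt2, Cd68, Lgals3, Ifi30, Lmo2 and Nexn, while every liver pair overlaps.

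Changes in the same direction were taken at the same looser level. The rule, made after the values were seen, was a muscle call, an unadjusted p under 0.05 in liver and the same sign. The difference was not part of the rule, and it was called for none of the genes in this class. The class held 10 of the 723 muscle calls, 5 higher and 5 lower, and moved between 4 and 27 genes when 1 library was left out. At that liver p, 2.57% of all genes were higher and 3.49% lower. None was called in liver by the adjusted test. The higher genes were Acot2, Por, Arrdc4, Map4k4 and Eci2, and the lower ones Ighm, Gstp1, Ghr, Bcl2 and Rmdn2. Promoters of Acot2 and Ghr are shown as the fasting-response enzyme and the hormone receptor of the class, from the same RefSeq set and with the same marks.
Acot2, chr12:83987611-83987910, plus strand: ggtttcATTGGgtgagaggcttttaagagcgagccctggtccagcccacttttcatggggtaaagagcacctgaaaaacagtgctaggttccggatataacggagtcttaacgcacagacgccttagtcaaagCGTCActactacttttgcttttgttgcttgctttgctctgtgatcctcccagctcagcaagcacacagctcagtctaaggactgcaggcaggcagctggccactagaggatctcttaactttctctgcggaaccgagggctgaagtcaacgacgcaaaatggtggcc
Ghr, chr15:3583303-3583602, minus strand: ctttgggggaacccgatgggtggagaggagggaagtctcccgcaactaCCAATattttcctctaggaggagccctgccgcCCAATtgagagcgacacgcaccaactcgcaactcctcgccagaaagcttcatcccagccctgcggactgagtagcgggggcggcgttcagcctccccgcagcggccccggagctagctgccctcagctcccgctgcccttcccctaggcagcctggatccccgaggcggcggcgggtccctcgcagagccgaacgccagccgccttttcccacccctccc

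The Acot2 window held 1 CAAT box and 1 CRE core and the Ghr window 2 CAAT boxes. Of the 8 same-way genes with a sequence, 1 had an E-box, 4 a CAAT box, 2 a CRE core, 4 an NF-1 motif and none a glucocorticoid receptor motif or the amino acid response core. Ighm and Map4k4 had no entry.

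Acot2, a mitochondrial thioesterase that frees fatty acids from CoA and is a target of PPAR alpha (chr12:83987861-83993873, plus strand), had the largest muscle and liver values of the class. It was at 96.9 CPM (35.3 to 192) in CTL muscle and 1432 CPM (190 to 3054) in COX10 KO muscle, and at 47.9 CPM (23.9 to 110) and 119 CPM (29.4 to 543) in CTL and COX10 KO liver. In muscle 5 of 6 COX10 KO libraries lay above every CTL library, and in liver 3 of 6. The log2 change was 3.84 in muscle (SE 0.66, adjusted p = 0.000795), 1.90 in liver (SE 0.62, unadjusted p = 0.00491, adjusted p = 0.515) and 1.94 for the difference (adjusted p = 0.212). The liver value was 1.28 without COX10 KO liver 4 and 6, the second of which held the highest level. Acot2 has close paralogs, among them Acot1, so its reads may be shared.

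Eci2, an enzyme of unsaturated fatty acid oxidation, was at 46.4 CPM (27.1 to 60.7) and 114 CPM (109 to 142) in CTL and COX10 KO muscle, without overlap, and at 139 CPM (101 to 366) and 243 CPM (150 to 391) in liver, with overlap. Its log2 change was 1.36 in muscle (adjusted p = 0.00191) and 0.55 in liver, with a difference of 0.80 (adjusted p = 0.22). Por, the reductase that feeds electrons to microsomal cytochrome P450 enzymes, was at 15.9 CPM (14.2 to 50.3) and 55.5 CPM (40.7 to 75) in muscle and at 203 CPM (138 to 419) and 410 CPM (140 to 796) in liver, overlapping in both. It had 1.43 in muscle (adjusted p = 0.0282) and 0.98 in liver. The Por muscle call was lost in 7 of 24 fits without 1 library, with an adjusted p of up to 0.0854 without CTL muscle 6.

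Arrdc4, an arrestin-like regulator of glucose uptake, was at 5.42 CPM (1.37 to 9.31) and 12.6 CPM (8.66 to 19.1) in muscle and at 7.15 CPM (4.63 to 11.5) and 12.6 CPM (7.32 to 22.1) in liver, with 4 of 6 COX10 KO libraries above every CTL library in each tissue. Map4k4, a kinase, was at 49.1 CPM (33.7 to 63.3) and 78.6 CPM (53.9 to 93.4) in muscle and at 17.9 CPM (13.8 to 23.9) and 32.5 CPM (18.1 to 40.7) in liver, with 5 of 6 above in each. Their log2 changes were 1.40 and 0.68 in muscle (adjusted p = 0.0216 and 0.0444) and 0.80 and 0.77 in liver. The muscle calls were lost in 4 and 14 of 24 fits without 1 library, with an adjusted p of up to 0.0708 and 0.173 without CTL muscle 6.

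Ghr, the growth hormone receptor (chr15:3317760-3583492, minus strand), was the only gene with separate groups in the same direction in both tissues. It was at 202 CPM (150 to 331) in CTL muscle and 105 CPM (65.0 to 115) in COX10 KO muscle, and at 700 CPM (569 to 2790) in CTL liver and 532 CPM (211 to 562) in COX10 KO liver. All 6 COX10 KO values lay below all 6 CTL values in each tissue, though in liver the gap was small and CTL liver 3 was far above the rest. The log2 change was -1.11 in muscle (SE 0.34, adjusted p = 0.0437) and -1.09 in liver (SE 0.35, unadjusted p = 0.00426, adjusted p = 0.501), and the difference was -0.02 with an interval of -1.01 to 0.96. The muscle call was lost in 12 of the 24 fits without 1 library, with an adjusted p of up to 0.11 without COX10 KO muscle 2.

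Ighm, the heavy chain of immunoglobulin M made by B cells, was at 66.0 CPM (17.3 to 130) and 4.83 CPM (2.85 to 20.9) in CTL and COX10 KO muscle and at 10.6 CPM (4.06 to 28.3) and 4.72 CPM (0.499 to 17.0) in liver. In muscle 5 of 6 COX10 KO libraries lay below every CTL library, in liver 2. It fell by 2.93 in muscle (log2, adjusted p = 0.0013), and its liver change was -1.24. Gstp1, a glutathione transferase with a near-identical neighbour that can share its reads, was at 6.24 CPM (1.86 to 7.55) and 1.46 CPM (0.87 to 3.82) in muscle and at 19.2 CPM (6.53 to 54.1) and 7.11 CPM (0 to 21.4) in liver, overlapping in both. It had -1.67 in muscle (adjusted p = 0.0442, lost in 12 of 24 fits without 1 library, up to 0.0963 without COX10 KO muscle 6) and -1.25 in liver.

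Bcl2, which blocks cell death, was at 17.2 CPM (9.81 to 29.8) and 7.84 CPM (6.2 to 11) in muscle and at 8.10 CPM (3.80 to 24.1) and 5.53 CPM (2.49 to 8.22) in liver, overlapping in both. It had -1.11 in muscle (adjusted p = 0.0432, lost in 13 of 24 fits without 1 library, up to 0.1 without CTL muscle 3) and -0.95 in liver. Rmdn2, a microtubule regulator, was at 16.8 CPM (14.2 to 21.2) and 9.10 CPM (6.26 to 11.6) in muscle, without overlap, and at 107 CPM (69.6 to 145) and 90.3 CPM (29.6 to 96.3) in liver, with overlap. It had -0.91 in muscle (adjusted p = 0.0247, lost in 2 of 24 such fits, up to 0.0627 without CTL muscle 6) and -0.51 in liver.

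**Figure D4:**
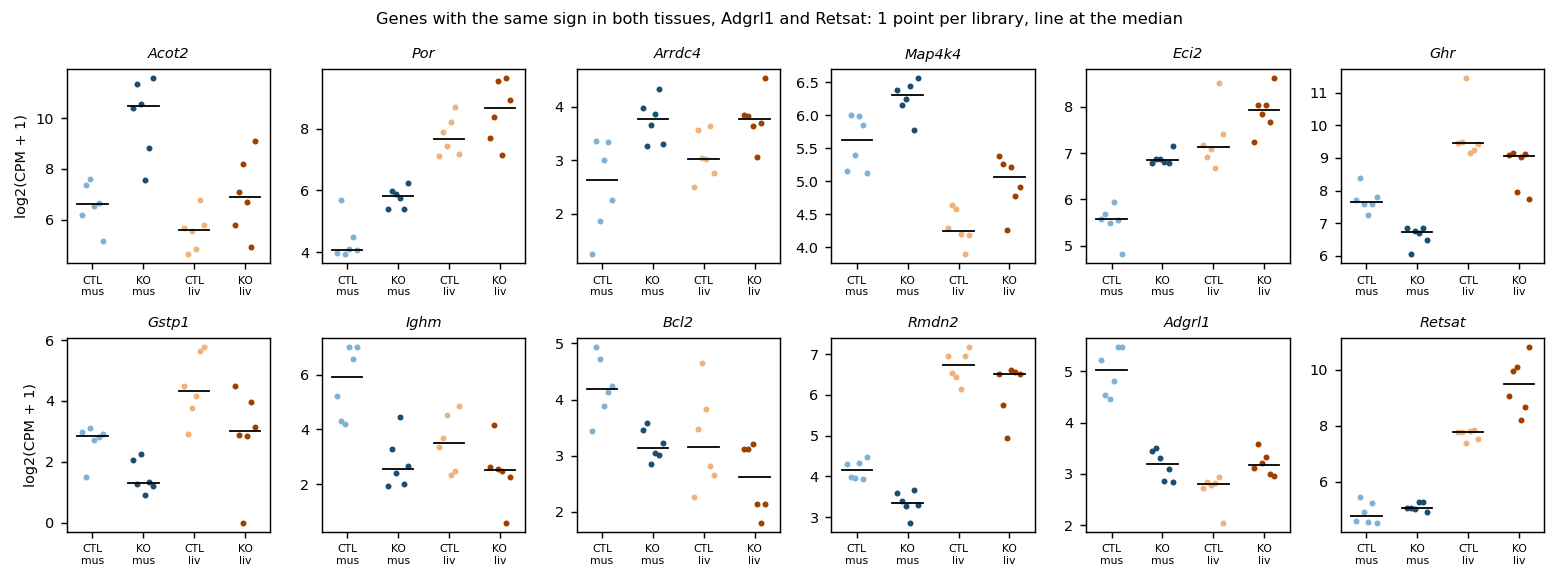
Level, log2(CPM + 1) on the y axis, of the 10 genes with the same sign in both tissues at the looser level, with Adgrl1 and Retsat, 1 point per library and a bar at the median of each group of 6. Ghr and Adgrl1 are separate in both tissues, and Retsat is separate in liver and overlaps in muscle.

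Retsat was the gene changed in liver only. It encodes retinol saturase, an enzyme of the endoplasmic reticulum that hydrogenates vitamin A and is expressed in liver and fat, and lies at chr6:72598475-72608425 on the plus strand. Its level was 167 to 232 CPM (median 220) in CTL liver and 297 to 1821 CPM (median 766) in COX10 KO liver, and 22.3 to 42.8 CPM (median 26.4) and 29.1 to 38.3 CPM (median 32.2) in CTL and COX10 KO muscle. The livers did not overlap, the highest COX10 KO value being that of COX10 KO liver 6, and the muscles did. Retsat had a log2 change of 2.05 in liver (SE 0.32, adjusted p = 0.0108), 0.21 in muscle (interval -0.46 to 0.88) and -1.84 for the difference (adjusted p = 0.0269). Without COX10 KO liver 4 and 6 the liver change was 1.79 (adjusted p = 0.0146). The liver call was lost in 2 of 24 fits without 1 library, CTL liver 6 (adjusted p = 0.0686) and COX10 KO liver 6, and the difference without CTL muscle 5 (adjusted p = 0.0549) or COX10 KO muscle 2.

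The 35 gene lists were chosen with earlier results of these data known, so their counts describe and do not test. Over all 8136 genes the median log2 change was 0.01 in muscle, -0.02 in liver and 0.01 for the difference. Of all genes, 4.65% rose and 4.24% fell in muscle, and 1.82% had a higher and 1.13% a lower difference. In liver, 2.57% were higher and 3.49% lower at an unadjusted p under 0.05. A list count near these shares is not a result about that list.

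Macrophage genes had the highest median difference between the tissues of the 33 lists with 3 or more members fitted. Of 18 fitted, 4 rose in muscle (Cd68, Lgals3, Ctss and Mpeg1), none was called in liver (4 by DESeq2), and 8 differed between the tissues with the higher change in muscle. Median log2 changes were 0.55 in muscle, -1.27 in liver and 1.71 for the difference. In muscle 16 of the 18 had positive values, and the groups were separate for 2. Members without a muscle call were mixed. For Mrc1 and C1qb, 0 COX10 KO muscle libraries lay above every CTL muscle library. This number was 1 for Csf1r and Cd163, 3 for Adgre1 and 5 for C1qa. All 18 had a negative liver value, 13 of them at an unadjusted p under 0.05, beside 3.49% of all genes. Lyz2, the lysozyme of macrophages, was at 62.9 CPM (36.7 to 128) and 143 CPM (69.6 to 198) in CTL and COX10 KO muscle and at 92.0 CPM (51.7 to 160) and 35.6 CPM (16.4 to 52.8) in liver, where 5 of 6 COX10 KO libraries lay below every CTL library. Its difference of 2.57 passed (adjusted p = 0.00485) although neither tissue did (adjusted p = 0.0727 in muscle and 0.179 in liver).

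Summed over the list, macrophage transcripts were 173 to 557 CPM (median 283) in CTL muscle and 351 to 776 CPM (median 596) in COX10 KO muscle. In liver they were 474 to 2052 CPM (median 904) in CTL and 308 to 715 CPM (median 463) in COX10 KO. Both pairs overlapped. The highest sums, 1644 and 2052 CPM, were those of CTL liver 2 and CTL liver 3. Requiring at least 10 counts in every library left 1 macrophage gene with a difference, and leaving out the 2 shallowest libraries gave 10.

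Antigen presentation and lymphocyte genes had negative liver values in all 12 members fitted, with medians of -0.23 in muscle and -0.90 in liver. Of the 12, 8 had an unadjusted p under 0.05 in liver, beside 3.49% of all genes. Ighm fell in muscle, and the class II genes H2-Aa and H2-Eb1 differed between tissues. H2-Eb1 was at 55.1 CPM (23.9 to 164) and 82.4 CPM (51.9 to 143) in muscle and at 67.7 CPM (52.9 to 106) and 30.9 CPM (18.1 to 49.3) in liver, where the groups were separate. Its difference was 1.89 (adjusted p = 0.0448) and that of H2-Aa 1.94 (adjusted p = 0.0397), and these were lost in 18 and 16 of 24 fits without 1 library, with an adjusted p of up to 0.122 and 0.114 without CTL muscle 6. Interferon-stimulated genes had negative values for 15 of 16 in liver and 15 in muscle, with medians of -0.57 and -0.48, and 7 had an unadjusted p under 0.05 in liver. Ifi27 had separate liver groups, at 104 to 136 CPM (median 120) in CTL and 45.0 to 83.8 CPM (median 66.1) in COX10 KO (unadjusted p = 0.000641, adjusted p = 0.249).

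Of 21 ATF4 targets fitted outside the ISRmt list, 10 rose in muscle, beside 4.65% of all genes, 9 of these differed from liver, and 3 had an unadjusted p under 0.05 in liver, all lower, with medians of 0.87 in muscle and -0.18 in liver. Slc3a2, the heavy chain of the large neutral amino acid transporter, rose from 70.7 CPM (51.4 to 164) to 291 CPM (236 to 358) in muscle, without overlap, and was at 87.9 CPM (78.6 to 134) and 72.6 CPM (36.2 to 95.3) in liver. The difference was 2.31 (adjusted p = 0.000459). Gars, which charges the glycine tRNA, rose from 69.2 CPM (59.2 to 81.4) to 245 CPM (207 to 309), with a liver change of -0.08 and an interval of -0.51 to 0.34 (difference 1.90, adjusted p = 0.000629). Eif4ebp1, a brake on cap-dependent translation, rose from 55.7 CPM (35.4 to 113) to 199.9 CPM (143 to 238), with -0.15 in liver (difference 1.89, adjusted p = 0.00389).

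Aars, the alanine tRNA synthetase, rose from 79.5 CPM (65.2 to 104) to 149 CPM (135 to 171) in muscle and was at 153 CPM (140 to 202) and 123 CPM (98.2 to 176) in liver, with a difference of 1.27 (adjusted p = 0.004). Endoplasmic reticulum chaperone and UPR genes had 5 of 21 rise in muscle and 2 differ from liver, with medians of 0.67 and -0.24. Ern1, the stress sensor IRE1, rose from 13.6 CPM (9.35 to 18.6) to 65.6 CPM (25.7 to 117) in muscle, against 54.2 and 47.0 CPM in liver (difference 2.37, adjusted p = 0.00178). Ero1l, an oxidase that drives disulfide formation, rose from 2.14 CPM (1.63 to 3.21) to 12.1 CPM (8.35 to 14.2), against 4.63 and 6.09 CPM (difference 1.75, adjusted p = 0.0133). Muscle groups were separate for all 3.

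PPAR and fasting response genes had positive medians in both tissues. Of 20 fitted, 2 rose in muscle (Pdk4 and Acot2), beside 4.65% of all genes. None was called in liver and none differed. Medians were 0.54 in muscle and 0.81 in liver. In liver 18 had positive values and 10 were higher at an unadjusted p under 0.05, beside 2.57% of all genes. Those 10 became 2 without COX10 KO liver 6. Pdk4, the kinase that shuts pyruvate dehydrogenase, rose from 49.4 CPM (23.0 to 116) to 368 CPM (64.3 to 668) in muscle, overlapping in 1 library, and was at 7.83 CPM (3.75 to 19.2) and 9.13 CPM (1.72 to 31.3) in liver. Its log2 change was 2.59 in muscle (adjusted p = 0.00587) and 0.64 in liver. Cyp4a14, a fatty acid hydroxylase, was at 757 CPM (97.2 to 1634) in CTL liver and 3756 CPM (1451 to 14815) in COX10 KO liver, with 5 of 6 COX10 KO libraries above every CTL library (log2 change 2.89, SE 1.21, unadjusted p = 0.0251, adjusted p = 0.749). Its level in muscle was 0.459 to 222 CPM, the highest in CTL muscle 2.

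Mitochondrial fatty acid oxidation enzymes had 4 of 21 rise in muscle (Eci2, Acsl1, Acadl and Hadhb), none differ between tissues, and medians of 0.38 in muscle and 0.45 in liver. In liver 5 had an unadjusted p under 0.05, and 1 without COX10 KO liver 6. Cholesterol and fatty acid synthesis genes had a median of -0.16 in muscle and -0.70 in liver, where 24 of 26 were negative. In liver 14 were lower at an unadjusted p under 0.05, beside 3.49% of all genes, without a call. Without COX10 KO liver 2 these were 6, and without the 2 CTL livers that went against their labelled sex they were 4. Fdft1, squalene synthase, was at 119 CPM (66.0 to 222) and 68.9 CPM (27.6 to 113) in liver, with a log2 change of -0.93 (adjusted p = 0.434), and Msmo1, a sterol oxidase, at 479 CPM (415 to 806) and 301 CPM (91.0 to 509), with -0.84 (adjusted p = 0.694).

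Mvd, the decarboxylase of the mevalonate pathway, was the list's only call. It was at 9.45 CPM (4.34 to 18.4) and 35.4 CPM (19 to 52.9) in muscle, without overlap, and at 81.5 CPM (20.2 to 116) and 25.0 CPM (7.84 to 75.6) in liver, with a difference of 2.59 (adjusted p = 0.038). Both this call and the muscle call were lost in 14 of 24 fits without 1 library, with an adjusted p of up to 0.0813 and 0.124 without CTL muscle 6. The difference was also lost without the 2 CTL livers that went against their label (adjusted p = 0.0926) and without COX10 KO liver 4 and 6 (adjusted p = 0.061). Glucocorticoid receptor targets had 3 of 26 rise in muscle, Mt1, Mt2 and Pdk4, beside 4.65% of all genes, with medians of 0.42 and 0.15.

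Lists of protein synthesis had a few members rise in muscle. Cytosolic ribosomal protein genes had 9 of 75 rise and 3 differ from liver (Rps15a, Rpl12 and Rpl3), with medians of 0.33 in muscle and 0.05 in liver. Rps15a was at 274 CPM (249 to 297) and 443 CPM (421 to 563) in muscle and at 192 CPM (175 to 213) and 164 CPM (157 to 219) in liver, with a difference of 0.90 (adjusted p = 0.0275). Leaving out 1 library gave between 0 and 6 such differences, and in these fits Rps15a was lost in 8 of 24, Rpl12 in 16 and Rpl3 in 22, with the highest adjusted p, 0.0795, 0.0956 and 0.132, without CTL muscle 6. Reads of ribosomal protein genes can be shared with their processed copies. Mitochondrial ribosomal protein genes had 7 of 69 rise in muscle, beside 4.65% of all genes, and 1 differ, beside 1.82%. The gene that differed was Mrpl44 (difference 1.74, adjusted p = 0.0354). Its call was lost in 13 of the 24 fits, with an adjusted p of up to 0.0897 without CTL muscle 6.

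Fuel and respiratory chain lists had few calls. TCA cycle and pyruvate entry genes had 5 of 33 rise and 1 fall in muscle. The gene that fell was Pcx, pyruvate carboxylase, which supplies oxaloacetate and, in liver, gluconeogenesis: it was at 28.3 CPM (9.07 to 40.7) and 9.10 CPM (6.05 to 13.7) in muscle and at 84.6 CPM (52.0 to 144) and 168 CPM (42.3 to 281) in liver, overlapping in both, with -1.60 in muscle, 0.83 in liver and a difference of -2.43 (adjusted p = 0.00903). Of 21 glycolysis and glycogen genes 3 rose in muscle, and among them Gbe1, the glycogen branching enzyme, and Slc2a1, the glucose transporter GLUT1, differed from liver. Gbe1 went from 116 CPM (79.8 to 156) to 344 CPM (266 to 537) in muscle, without overlap, against 212 and 197 CPM in liver (difference 1.59, adjusted p = 0.00387). Slc2a1 had a difference of 1.80 (adjusted p = 0.0411), lost in 13 of 24 fits without 1 library, with an adjusted p of up to 0.0956 without CTL muscle 6.

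The 34 nuclear-encoded complex I subunits had medians of 0.13 in muscle and 0.19 in liver, the 22 branched-chain amino acid breakdown genes -0.07 and -0.06, and the 19 cytosolic heat shock genes 0.07 and 0.10. Complex IV genes had 1 of 28 rise and 1 fall in muscle, near the 4.65% and 4.24% of all genes. The gene that fell was Pet100, an assembly factor, at 21.1 CPM (13.4 to 32.6) and 9.62 CPM (7.4 to 11.1) without overlap (log2 change -1.20, adjusted p = 0.00358). In liver, Cox7a1, the muscle-type subunit of complex IV, was at 3.41 CPM (0.967 to 4.61) in CTL and 6.53 CPM (5.11 to 6.86) in COX10 KO, without overlap, with a log2 change of 1.04 (adjusted p = 0.336) that was also 1.04 without COX10 KO liver 4 and 6. Pfkm, the muscle-type phosphofructokinase, was at 3.10 CPM (1.45 to 4.63) and 7.36 CPM (4.25 to 11.2), with 1.27 (adjusted p = 0.179) and 0.94 without these libraries.

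Lysosome and autophagy genes had 3 of 34 rise and 1 fall in muscle, beside 4.65% and 4.24% of all genes. Atp6v1h, a subunit of the proton pump that acidifies lysosomes, rose from 14.3 CPM (11 to 19.3) to 76.4 CPM (59.9 to 115), and Ctsl, cathepsin L, from 106 CPM (45.1 to 298) to 674 CPM (414 to 868), both without overlap. Their liver changes were -0.33 and -0.13, and their differences 2.79 (adjusted p = 0.00146) and 2.56 (adjusted p = 0.0145). NRF2 targets had 4 of 24 rise in muscle, of which Srxn1, sulfiredoxin, differed from liver: it went from 34.2 CPM (22.5 to 59.1) to 158 CPM (128 to 241) in muscle and was at 48.9 and 47.2 CPM in liver (difference 2.08, adjusted p = 0.0136). Akt1, a kinase of insulin signalling, rose from 169 CPM (74.9 to 182) to 392 CPM (365 to 527), against 105 CPM (69.6 to 156) and 87.7 CPM (18.1 to 141) in liver (difference 2.10, adjusted p = 0.00306).

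In the remaining lists few members were called. Bbc3, the death activator PUMA, was the only one of 10 p53 targets to rise in muscle and to differ from liver (difference 2.04, adjusted p = 0.0489, lost in 16 of 24 fits without 1 library, up to 0.106 without CTL liver 6). Stab2, a scavenger receptor of sinusoidal endothelium, fell from 14.2 CPM (3.72 to 18.5) to 3.25 CPM (1.43 to 5.51) in muscle and was at 59.4 and 68.7 CPM in liver (difference -2.16, adjusted p = 0.00189), alone among 11 endothelial markers, whose summed level was 335 to 465 CPM in CTL muscle and 371 to 445 CPM in COX10 KO muscle. Timp2, a metalloproteinase inhibitor, was the only one of 26 matrix genes to fall in muscle and to differ (difference -1.12, adjusted p = 0.0494, lost in 18 of 24 such fits, up to 0.0976 without CTL liver 1). Of 16 growth hormone and IGF genes 3 fell in muscle, Ghr, Stat5b and Igfals, and of 15 clock genes 2 did, Hlf and Rora, none with a difference between tissues.

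Marker lists of other cell types bear on some of these values. Erythrocyte markers had negative values in both tissues for all 5 fitted (medians -1.79 and -1.04), but the median summed level was 1430 CPM for CTL against 1414 CPM for COX10 KO muscle, and 1742 CPM for CTL against 1995 CPM for COX10 KO liver. CTL muscle 3 and CTL liver 3 held the highest sums, 11120 and 15421 CPM. Hepatocyte markers had a median of -1.10 in muscle, 10 of 11 being negative, beside the 3233 CPM of hepatocyte transcripts in CTL muscle 2. None of these markers was called in either tissue, and their part in the other results was not tested.

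**Figure D5:**
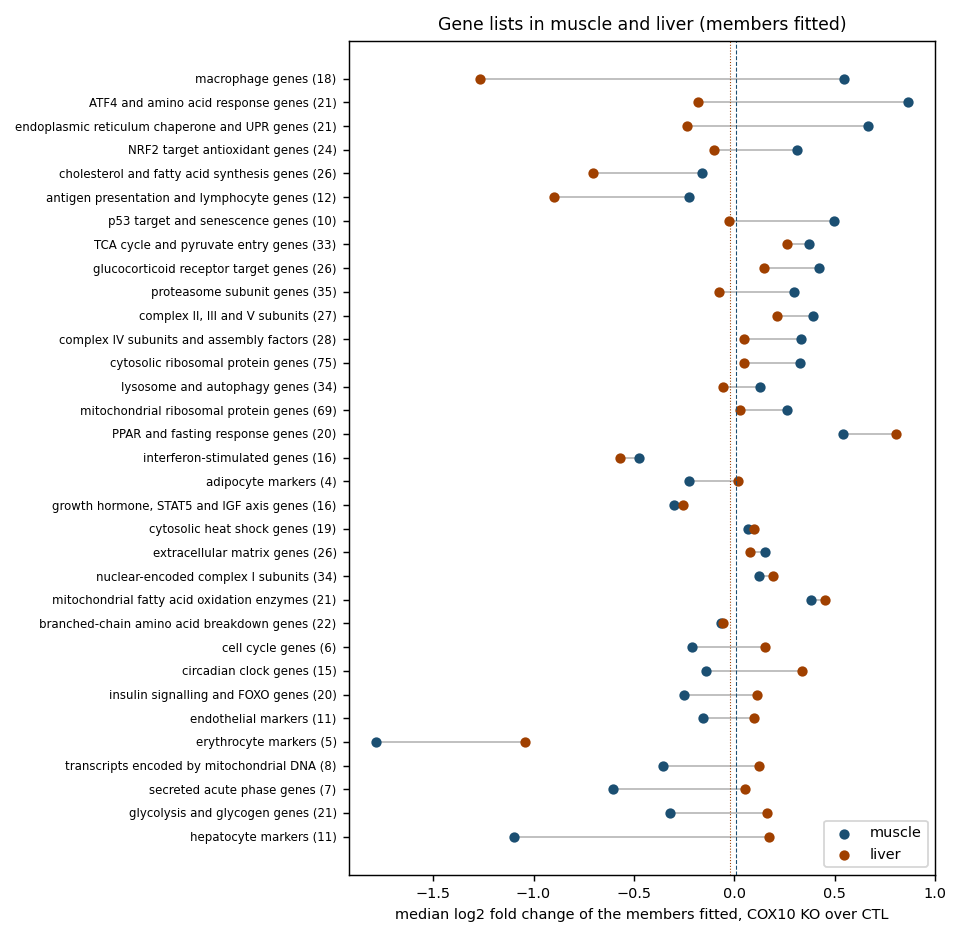
Median log2 fold change of COX10 KO over CTL (x axis) of the members fitted in each of 33 gene lists (y axis, number fitted in brackets), in muscle (blue) and liver (brown), with dashed and dotted lines at the medians of all genes in muscle and liver. Macrophage genes lie at 0.55 and -1.27, and PPAR and fasting response genes at 0.54 and 0.81.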

How the data were processed

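Calf muscle and liver RNA of CTL and COX10 KO mice was sequenced from Lexogen QuantSeq 3′ FWD libraries. The authors trimmed reads with BBDuk, aligned them with STAR 2.5.0a (GRCm38.p6) and used HTSeq 0.6.1 to assign reads to genes. Raw counts of 55401 gene identifiers were deposited. The strand setting of the counting is not given in the sources used here. Hypothalamus libraries were not used here. Gene positions are those of GENCODE vM21 (GRCm38) and promoters those of RefSeq.

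Counts were fitted with edgeR 4.0.16 in R 4.3.3 (quasi-likelihood test, TMM factors within each tissue), with 4 group means and labelled sex within tissue, over the genes that filterByExpr kept in muscle alone and in liver alone. Printed CPM use the TMM-adjusted library sizes. Contrasts were COX10 KO minus CTL in muscle, in liver, and the muscle minus the liver change, with p-values adjusted by Benjamini-Hochberg over all genes fitted. The scripts were tested on simulated data.

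A gene changed in muscle only had called changes in muscle and for the difference and none in liver. Named were, outside the ISRmt list and predicted genes, the 10 largest rises and falls in muscle only with separate muscle groups and a mean count of at least 10, up to 10 of each other class, and, per list, the 4 genes with the smallest p for the difference. Other list members named by their calls were chosen after their values were seen. The members and lists were chosen with earlier results of these data known. Library depth ran from 434494 to 16044634 counts, so low genes are least precise in the shallow libraries. The labels number the libraries but do not say how they share animals, so p-values measure the spread between these libraries. Alternatives were DESeq2 1.42.0, other size factors, filters and sex terms, each tissue alone, replicate blocks and leaving out libraries.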

Additional observations from a re-analysis of the deposited data

Results flagged for a closer look

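The knockout effect differed between muscle and liver in 240 genes, each by the test of the difference itself, and 50 of the genes named are among them. Among metallothionein, peroxisomal, cell death, lipid synthesis, cytoskeletal and other genes, the muscle change exceeded the liver change (log2) by Mt2 6.81, Mt1 4.30, Acox2 6.65, Bid 3.78, Bbc3 2.04, Mid1ip1 3.33, Tubb6 3.28 and Spg21 3.21. For genes of macrophages, lysosomes, antigen presentation, immune signalling and blood cells the differences were Cd68 5.28, Lgals3 3.75, Ifi30 3.33, Mpeg1 3.75, Sh3bp2 3.30, Ctss 3.21, Lyz2 2.57, H2-Aa 1.94, H2-Eb1 1.89, Lmo2 3.01, Atp6v1h 2.79 and Ctsl 2.56. Stress response and amino acid genes had Slc3a2 2.31, Gars 1.90, Eif4ebp1 1.89, Aars 1.27, Ern1 2.37, Ero1l 1.75 and Srxn1 2.08. Metabolic and ribosomal genes with a higher muscle change had Gbe1 1.59, Slc2a1 1.80, Mvd 2.59, Akt1 2.10, Rps15a 0.90, Rpl12 0.92, Rpl3 1.24 and Mrpl44 1.74. The muscle change was the lower in signalling and receptor genes, at Adcy9 -2.87, Adgrl1 -2.58, Adra1a -2.40, Pde4a -2.38, Pde4d -2.23, Map2k6 -2.71 and Stab2 -2.16. It was also the lower in the remaining genes, at mt-Rnr2 -3.03, Nexn -3.01, Sorbs2 -2.39, Tshz1 -2.23, Pdzrn3 -2.16, Retsat -1.84, Pcx -2.43 and Timp2 -1.12.

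A library far from the other libraries of its group was looked for in 284 groups of 6 values by Dixon's gap ratio at its 95% critical value, and 19 values passed. Chance gives about 5% of groups. CTL muscle 2 stood apart from the other 5 libraries of its group in Acox2 (3.72 CPM), Mpeg1 (13 CPM), Gstp1 (1.86 CPM), Por (50.3 CPM), Stab2 (3.72 CPM), Timp2 (127 CPM), Cyp4a14 (222 CPM) and Ifi27 (112 CPM). COX10 KO liver 3 was an extreme in Mid1ip1 (1.64 CPM), Gstp1 (0 CPM), Mrpl44 (1.64 CPM) and mt-Nd2 (2669 CPM). CTL liver 3 was an extreme in Ghr (2790 CPM) and Mrps9 (15.2 CPM). CTL liver 6 was an extreme in Adgrl1 (3.14 CPM). COX10 KO muscle 6 was an extreme in Eci2 (142 CPM). COX10 KO muscle 4 was an extreme in Mrpl44 (36.9 CPM). CTL muscle 4 was an extreme in Pcx (9.07 CPM). COX10 KO liver 2 was an extreme in Cox7a1 (5.11 CPM). CTL muscle 2 and COX10 KO liver 3, the 2 shallowest libraries, held 12 of the 19.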

How the results depend on the processing

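No called result reversed its sign. The counts of genes with a difference, called in muscle, called in liver and changed in muscle only were 240, 723, 1 and 207. With DESeq2 they were 551, 1161, 24 and 448, with 13 genes changed in liver only, 1 moving the same way (Map4k4) and 2 moving opposite ways (Gdf15 and Lyz2). Requiring at least 10 counts in every library gave 153, 474, 1 and 135. Sex read from sex-linked transcripts gave 433, 1070, 2 and 373, with 2 in liver only. Fitting each tissue alone gave 268, 1190, 0 and 241, with 0 in liver only. Without a filter on low counts the liver had 24 calls, 6 in liver only and 1 gene (D2hgdh) moving the same way. Without the 2 CTL livers that went against their labelled sex, the liver had 3 calls, all 3 in liver only. Without the 2 shallowest libraries there were 423 differences, 1009 muscle calls, 4 liver calls, 363 genes in muscle only, 2 in liver only, 1 moving the same way and 1 opposite. Without COX10 KO liver 4 and 6 there were 369 differences and 3 liver calls, all 3 in liver only. The last 2 exclusions were chosen after seeing the data. The looser classes ran from 23 to 82 genes of opposite sign and from 7 to 34 of the same sign over these alternatives. The cause of these shifts was not tested.

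Leaving out 1 library gave 123 to 359 differences, 297 to 976 muscle calls, 0 to 3 liver calls, 0 to 1 genes moving opposite ways, 109 to 294 changed in muscle only and 0 to 3 in liver only. Differences fell past 1.5 times without CTL muscle 3 (151), CTL muscle 5 (131), CTL muscle 6 (123), COX10 KO muscle 2 (137), COX10 KO muscle 5 (157), CTL liver 1 (156), CTL liver 5 (154), COX10 KO liver 2 (143) or COX10 KO liver 5 (144), and muscle calls without CTL muscle 3 (444), 5 (408) and 6 (297) and COX10 KO muscle 2 (386) and 5 (420).

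Replicate numbers recur across the groups. Correlations of same-numbered libraries' deviations ran from -0.536 to 0.439 between tissues, with their own number the best match in 3 of 12. Between genotypes they ran from -0.368 to -0.0503 in muscle and from -0.526 to 0.206 in liver. The numbers were therefore not taken to pair libraries in the main fit. However, CTL muscle 3 and CTL liver 3 both held the highest erythrocyte sum of their tissue (11120 and 15421 CPM). Whether some same-numbered libraries share an animal is not known. A replicate block of genotype and number gave 103 differences and kept 35 of the 50 named ones, losing mt-Rnr2, Nexn, Pde4d, Lmo2, Retsat, Ero1l, Bbc3, Mrpl44, Rps15a, Rpl12, Rpl3, Pcx, Timp2, H2-Aa and H2-Eb1, and number as a term shared by the groups gave 177 differences, 567 muscle calls, 0 liver calls and 0 genes in liver only, losing Pde4d, Retsat, Rpl12, Rpl3, Timp2 and H2-Eb1. Depth limits the genes with few counts, above all in the 2 shallowest libraries.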

Other observations

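D2hgdh, the mitochondrial enzyme that oxidises D-2-hydroxyglutarate, was outside the 8136 genes because of its low counts, and is named after its values were seen. It was at 0 to 1.38 CPM (median 0.331, 0 to 5 counts) in CTL muscle and 0.477 to 4.57 CPM (median 3.67, 3 to 54 counts) in COX10 KO muscle. In liver it was at 0.242 to 1.81 CPM (median 1.21, 1 to 22 counts) in CTL and 1.64 to 12.4 CPM (median 7.69, 1 to 35 counts) in COX10 KO. Without a filter on low counts edgeR called it higher in both tissues, with log2 changes of 2.52 in muscle (adjusted p = 0.0241) and 2.87 in liver (adjusted p = 0.0282), the only gene to pass in both in that fit. Without the 2 shallowest libraries, where it passed the usual filter, the changes were 2.46 (adjusted p = 0.015) and 3.09 (adjusted p = 0.0249).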
